A study of Mus musculus with 24 samples.

Results

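Interferon receptors, the Janus kinases bound to them and the suppressors of cytokine signalling (SOCS) that switch them off were followed in the mouse colorectal cancer cell line MC38. The 9 genes were chosen by symbol from 52636 gene identifiers and all 9 were found. They are the type I interferon receptor chains Ifnar1 and Ifnar2, the interferon gamma receptor chains Ifngr1 and Ifngr2, the kinases Jak1, Jak2 and Tyk2, and the inhibitors Socs1 and Socs3. RNA was sequenced from 24 samples, 3 from each of 8 lines derived from MC38, a tumor line of the C57BL/6 strain. MC38-WT was untransfected. MC38-MOCK#1 had received an empty CRISPR-Cas9 construct, and MC38-CMAS KO (Cmas, which activates sialic acid), MC38-COSMC KO (C1galt1c1, the chaperone of T-synthase) and MC38-DKO (both genes) were made with the same system. MC38-MOCK#2 was the control of the gene activation system CRISPR-dCas-VPR, and MC38-FUT4 and MC38-FUT9 were made with it to raise a fucosyltransferase. All lines except MC38-WT had been grown with puromycin. COSMC KO cells were a bulk population sorted for lectin binding and not 1 clone. Samples of a line came from different passages, with the exception of samples 1 and 3 of MC38-FUT4, which were both labelled passage 7. The lines had been sampled at passages 4 to 6 (MC38-MOCK#1 and the 3 knockout lines), 6 to 8 (MC38-MOCK#2, MC38-FUT9), 7 to 8 (MC38-FUT4) or 7 to 9 (MC38-WT), and an effect of passage cannot be fully told apart from one of the line. The labels name no interferon treatment.

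Type I interferons bind IFNAR1 and IFNAR2, which carry TYK2 and JAK1. Interferon gamma binds IFNGR1 and IFNGR2, which carry JAK1 and JAK2. The kinases phosphorylate STAT proteins, which enter the nucleus and switch on interferon target genes. Among these targets is Socs1, which binds JAKs and ends the signal, whereas Socs3 is best known as a target of STAT3 that restrains receptors of the interleukin-6 family. In tumor cells these genes help to decide whether interferon from immune cells can raise antigen presentation.

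The deposited values are read counts that the authors scaled by library and rounded, here called normalized counts. They summed to between 10911849 and 12263307 per sample, and the reads behind them were estimated at 6759000 to 16231000 per sample. The lowest estimate for a member in any sample was 45.2 reads (Socs1), so all 9 genes passed the filter on low values in every comparison. Vim, a mesenchymal gene, was high in all samples, while the 5 epithelial markers (Epcam, Cdh1, Krt8, Krt18 and Krt19) never exceeded 8 and the summed leukocyte markers lay between 23 and 66, of which Cd68 made up most. Cd3e, Itgam, Csf1r and Ptprc never exceeded 10. Cmas stood at 93 to 142 in the 2 lines in which it was targeted and at 272 to 416 in the other lines. C1galt1c1 stood at 124 to 163 in MC38-COSMC KO and at 220 to 251 in MC38-MOCK#1, and MC38-DKO at 166 to 206 overlapped with MC38-CMAS KO at 152 to 215. Fut9 reached 641 to 955 in MC38-FUT9. The line labelled MC38-FUT4 held Fut4 at 1, 0 and 1 and Fut9 at 209, 171 and 186, so this line is named by its label only. Of 4 mesenchymal markers (summed level 20555 to 33380 per sample), 3 were lower there than in MC38-MOCK#2 and 0 were called in MC38-FUT9, and their part in the results was not tested. As cells were sequenced in bulk, fewer cells of a kind and less RNA per cell cannot be told apart. Sample 3 of MC38-MOCK#2 stood apart from the other samples of its line in interferon targets. To a lesser degree this also held for sample 3 of MC38-MOCK#1, and samples of other lines differed too. Several results that rest on sample 3 of MC38-MOCK#2 are given with and without it. All other values against MC38-MOCK#2 include it, and fold changes against MC38-MOCK#1 include sample 3 of that line.

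Ifnar2 (chr16:91372783-91405589, plus strand, GRCm38), Ifnar1 (chr16:91485238-91507441) and Ifngr2 (chr16:91547072-91565169) lie in a cluster of 192 kb that also holds Il10rb, a receptor chain shared by interleukin-10 and interferon lambda. Socs1 (chr16:10783808-10785536, minus strand) lies at the other end of the same chromosome. Ifngr1 is on chromosome 10 (19591949 to 19610229), Jak1 on chromosome 4 (101152367 to 101265282), Jak2 on chromosome 19 (29251828 to 29313080), Tyk2 on chromosome 9 (21104068 to 21131243) and Socs3 on chromosome 11 (117966079 to 117970047). Exons of Ifnar2 share 315 bases with Gm21970, and exons of Tyk2 share 554 bases with 1700084C06Rik on the opposite strand. These overlapping genes were listed at 0 and at 0 to 5 in the 24 samples.

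The promoters of all 9 genes were found in RefSeq (GRCm38.p6) as windows of 300 bases, 250 of them before the start. They were searched on both strands for 2 motifs, the STAT element TTCNNNGAA and the paired interferon element GAAANNGAAA, which do not overlap in any member. The first was found in 3 members, Ifnar1, Ifnar2 and Socs3, and in 8.30% of all 32851 promoters. The second was found in 1 member, Socs1, and in 3.44% of all promoters. The stretches around the matches are shown for both inhibitors because their RNA is compared with STATs and interferon targets below. Capitals mark the matched letters, both sequences run 5′ to 3′ on the minus strand, and a match is a description of the letters and not of a bound site. In Socs1 (chr16:10785544-10785679) a pair of overlapping matches begins 83 and 77 bases before the start, and in Socs3 (chr11:117969452-117969580) the match begins 154 bases before it.
Socs1: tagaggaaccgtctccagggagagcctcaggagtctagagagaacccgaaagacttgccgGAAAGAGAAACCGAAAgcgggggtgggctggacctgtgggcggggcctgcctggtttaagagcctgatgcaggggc
Socs3: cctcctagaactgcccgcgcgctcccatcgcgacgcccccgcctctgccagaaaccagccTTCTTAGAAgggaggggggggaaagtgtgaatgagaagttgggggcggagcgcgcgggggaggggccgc

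All 9 genes were expressed in all 8 lines, for which no interferon treatment was named. Divided by exon length, the mean level over the 24 samples was highest for Jak1, at 393 normalized counts per kb. It was 96.9 per kb for Ifngr1, 93.1 for Socs1, 69.9 for Ifnar1, 69.3 for Jak2 and 68.6 for Socs3. Ifnar2 followed at 47.5 per kb, Ifngr2 at 46.6 and Tyk2 at 18.7. Jak1 RNA was thus the most abundant and Tyk2 RNA the least abundant of the 9. In both receptors the level of chain 1 (Ifnar1, Ifngr1) was above that of chain 2 (Ifnar2, Ifngr2).

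**Figure D1:**
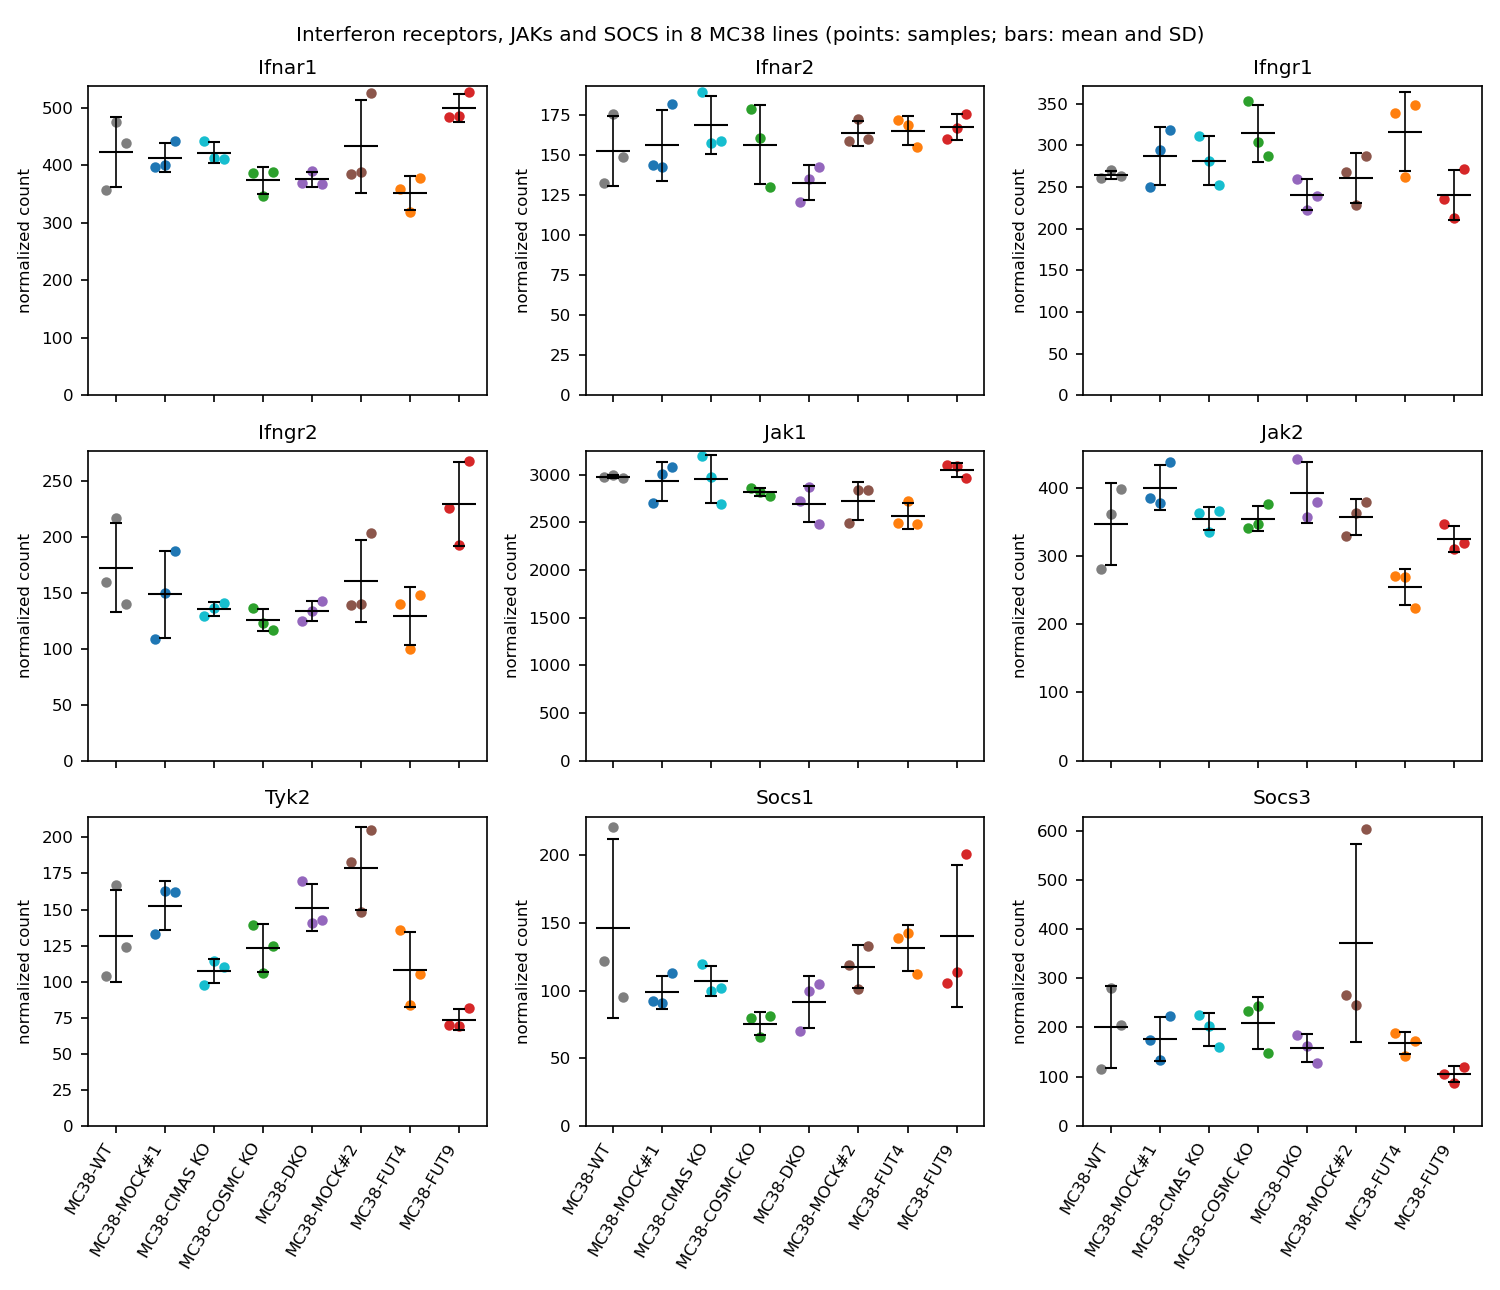
Normalized counts (vertical axis, linear from 0) of the 9 genes in the 8 lines (horizontal axis), with 1 point per sample and bars for the mean and SD of 3 samples. Tyk2 and Socs3 were lowest in MC38-FUT9, Jak2 was lowest in the line labelled MC38-FUT4, and Jak1 stayed between 2486 and 3192 in all samples.

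The line means of Jak1 differed least, with the highest 1.19 times the lowest, and those of Socs3 differed most, by 3.55 times. Between them stood Ifnar2 (1.27), Ifngr1 (1.32), Ifnar1 (1.42), Jak2 (1.57), Ifngr2 (1.83), Socs1 (1.93) and Tyk2 (2.43). Over the 13515 genes with a mean of at least 10 the median of this ratio was 1.58, and the median of the 9 members was 1.57. A test over all 8 lines (limma, moderated F) called 5 of the 9 genes at an adjusted p below 0.05, where 48.2% of all genes tested were called. These were Tyk2 (adjusted p = 0.000142), Jak2 (adjusted p = 0.00164), Socs3 (adjusted p = 0.00703), Ifngr2 (adjusted p = 0.0129) and Ifnar1 (adjusted p = 0.0173). Socs1 (adjusted p = 0.0538), Ifngr1 (adjusted p = 0.0583), Jak1 (adjusted p = 0.0600) and Ifnar2 (adjusted p = 0.334) did not pass.

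Each knockout or activation line was then compared with its control. MC38-WT and MC38-MOCK#2 were each compared with MC38-MOCK#1, and 2 further pairs were compared. All used limma on log2 of the normalized count plus 1, with p adjusted over all genes of the comparison. Of the 81 tests of a member, 3 passed and all 3 were in the lines of the activation system. Jak2 was lower in the line labelled MC38-FUT4, and Tyk2 and Socs3 were lower in MC38-FUT9, each against MC38-MOCK#2. The 95% interval of a log2 fold change reached between 0.14 and 0.86 to either side, with a median of 0.32, so smaller differences could not be resolved.

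For MC38-COSMC KO against MC38-MOCK#1, the line with truncated O-glycans and its control, limma called 0 of 9 members and 11.6% of all genes. At an unadjusted p below 0.05 the count was 1 (Socs1). Samples did not overlap for 3 members (Ifnar1, Jak2, Socs1), or 33.3% of them, and for 28.4% of all genes. Of all calls 53.3% were higher, or 39.2% after rescaling to equal totals, and 0 members were called under either scaling.

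No member was called by limma in 6 further comparisons. Against MC38-MOCK#1, these were MC38-CMAS KO (5.76% of all genes called, 1 member at an unadjusted p below 0.05), MC38-DKO (0.092%, 0 members), MC38-WT (5.51%, 0 members) and MC38-MOCK#2 (11.3%, 1 member). The others were MC38-COSMC KO against MC38-WT (0.581%, 2 members) and MC38-DKO against MC38-CMAS KO (6.93%, 2 members). Samples did not overlap for 2 members in MC38-CMAS KO (24.3% of all genes), 1 in MC38-DKO (11.2%), 0 in MC38-WT (23.4%) and 1 in MC38-MOCK#2 (28.7%). Between MC38-COSMC KO and MC38-WT this held for 4 members (17.3%), and between MC38-DKO and MC38-CMAS KO for 3 (24.5%). In MC38-DKO all 9 log2 fold changes against MC38-MOCK#1 were below 0, from -0.25 to -0.01, but all of their 95% intervals included 0.

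Against MC38-MOCK#2, 1 of 9 members was called in the line labelled MC38-FUT4, where 16.1% of all genes were called and 8.04% were called lower. In MC38-FUT9 2 of 9 were called, where 24.1% of all genes were called and 12% were called lower. Samples did not overlap for 4 members in the line labelled MC38-FUT4 (32.1% of all genes) and for 3 in MC38-FUT9 (36.8%). In MC38-FUT9 50.3% of all calls were higher, or 37.9% after rescaling to equal totals, and 2 members were called under both scalings. Comparisons with the same control share its samples.

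**Figure D2:**
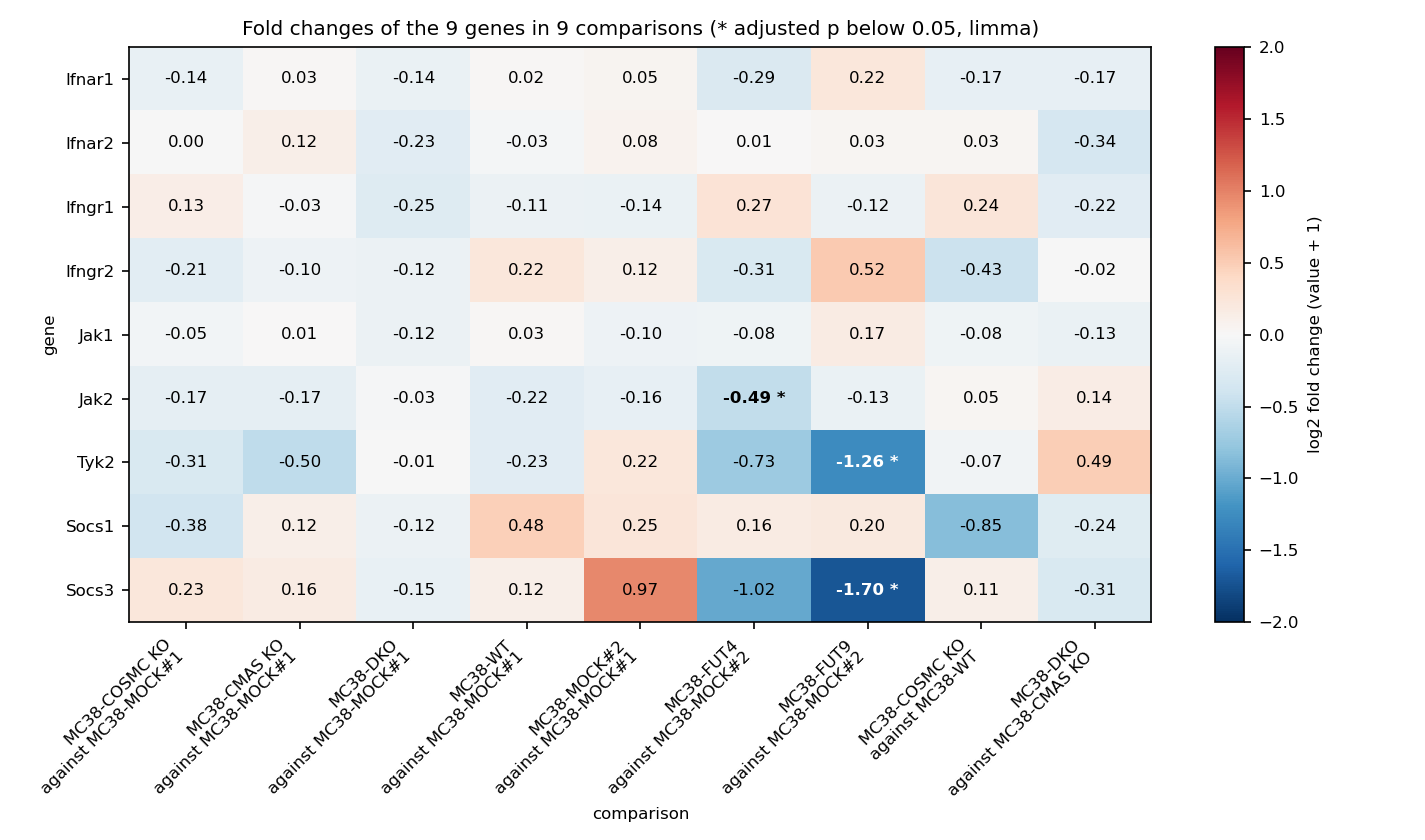
Log2 fold changes on the scale of log2(normalized count + 1) for the 9 genes (rows) in 9 comparisons (columns), from blue for lower to red for higher, with an asterisk where limma gave an adjusted p below 0.05. The 3 marked values are -0.49 for Jak2, -1.26 for Tyk2 and -1.70 for Socs3, and the receptor rows hold no mark.

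The receptor chains were not called in any of the 9 comparisons. Ifnar1, which binds type I interferon together with Ifnar2, stood at 484, 485 and 527 in MC38-FUT9, its highest line, and at 384, 388 and 525 in MC38-MOCK#2. Sample 3 of MC38-MOCK#2 thus reached into the range of MC38-FUT9, while samples 1 and 2 lay below it. The log2 fold change was 0.22 (SE 0.13, adjusted p = 0.272). Without sample 3 of MC38-MOCK#2 it was 0.37 (adjusted p = 0.0184), so the call of Ifnar1 depends on this sample. Ifnar1 was lowest in the line labelled MC38-FUT4, at 358, 319 and 378. These values lay below all 3 of MC38-MOCK#2, and the fold change was -0.29 on the log2 scale (SE 0.14, adjusted p = 0.236). The remaining lines had means from 374 ± 23.1 in MC38-COSMC KO and 375 ± 12.7 in MC38-DKO to 423 ± 60.5 in MC38-WT (SD, n = 3). MC38-DKO (367 to 390) did not overlap with MC38-MOCK#1 (397 to 442), with a difference of -0.14 on the log2 scale that did not pass (adjusted p = 0.740).

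Ifngr2, the chain that brings JAK2 to the interferon gamma receptor, stood at 226, 193 and 268 in MC38-FUT9. In MC38-MOCK#2 it stood at 139, 140 and 203, so that 1 of 3 samples overlapped. The log2 fold change was 0.52 (SE 0.19, adjusted p = 0.0950). Without sample 3 of MC38-MOCK#2 it was 0.70 (adjusted p = 0.0357), and Ifngr2 was then called higher. In MC38-COSMC KO it was at 136, 123 and 117 and in MC38-WT at 160, 217 and 140, which did not overlap. Their log2 fold change of -0.43 did not pass (SE 0.18, adjusted p = 0.324). Line means of the other 5 lines lay between 129 ± 25.7 in the line labelled MC38-FUT4 and 161 ± 36.7 in MC38-MOCK#2 (SD, n = 3).

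Ifngr1, the chain that binds interferon gamma and carries JAK1, was highest in the line labelled MC38-FUT4 (316 ± 47.3) and in MC38-COSMC KO (315 ± 34.3), and lowest in MC38-FUT9 (240 ± 29.7) and MC38-DKO (241 ± 18.6; all SD, n = 3). Its largest log2 fold change was 0.27 in the line labelled MC38-FUT4 (SE 0.14, adjusted p = 0.266). Ifnar2 had the flattest pattern of the receptor chains. Its line means lay between 133 ± 11.1 in MC38-DKO and 169 ± 18.2 in MC38-CMAS KO, and against MC38-MOCK#2 its log2 fold changes were 0.01 in the line labelled MC38-FUT4 and 0.03 in MC38-FUT9. The 95% interval of the latter ran from -0.19 to 0.25. MC38-DKO lay below MC38-CMAS KO in all 3 samples for Ifnar2, at 121, 135 and 143 in the former and 158 to 190 in the latter (log2 fold change -0.34, SE 0.13, adjusted p = 0.179).

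Tyk2, the kinase of the type I receptor, varied most among the kinases. It stood at 70, 69 and 82 in MC38-FUT9 and at 183, 148 and 205 in MC38-MOCK#2. Every sample of MC38-FUT9 was below every sample of the other 7 lines. Against MC38-MOCK#2 the log2 fold change was -1.26 (SE 0.15, adjusted p = 0.00203). It stayed between -1.39 and -1.15 when any of the 6 samples was left out, and each of these fits called it. Tyk2 stood at 136, 84 and 105 in the line labelled MC38-FUT4, below all samples of MC38-MOCK#2. This difference of -0.73 did not pass (SE 0.21, adjusted p = 0.0552). Among the knockout lines it was lowest in MC38-CMAS KO, at 98, 114 and 110 against 133, 163 and 162 in MC38-MOCK#1, again without overlap (log2 fold change -0.50, SE 0.13, adjusted p = 0.0753). MC38-COSMC KO held 139, 106 and 125, and MC38-DKO, in which both genes were targeted, held 170, 141 and 143. MC38-DKO differed from MC38-MOCK#1 by -0.01 on the log2 scale (95% interval -0.33 to 0.31), while both single knockouts had lower means than either.

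Jak2, the kinase of the interferon gamma receptor, stood at 271, 269 and 224 in the line labelled MC38-FUT4 and at 329, 363 and 380 in MC38-MOCK#2. The groups did not overlap, and every sample of the former was also below every sample of the other 6 lines. The log2 fold change was -0.49 (SE 0.11, adjusted p = 0.0248). This call was lost in 5 of the 6 fits that left out 1 sample, all but the one without sample 1 of MC38-MOCK#2. The adjusted p rose to at most 0.0906 (without sample 2 of MC38-MOCK#2) and the fold change stayed between -0.55 and -0.40. It was also lost when samples 1 and 3 of that line, which were closer to each other than any other pair, were averaged. In MC38-FUT9 Jak2 stood at 347, 310 and 319, with a log2 fold change of -0.13 (95% interval -0.34 to 0.07). The knockout lines had means of 355 ± 16.5 (MC38-CMAS KO), 355 ± 18.4 (MC38-COSMC KO) and 393 ± 44.5 (MC38-DKO), and MC38-MOCK#1 had 401 ± 32.6 (SD, n = 3).

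Jak1, which serves both interferon receptors, was the steadiest member. Its line means lay between 2567 ± 134 in the line labelled MC38-FUT4 and 3049 ± 76.0 in MC38-FUT9 (SD, n = 3). All 3 samples of MC38-FUT9 (3100, 3086 and 2962) were above those of MC38-MOCK#2 (2494, 2838 and 2839). The difference of 0.17 did not pass (SE 0.07, adjusted p = 0.149).

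Socs3, the inhibitor induced by STAT3, stood at 106, 88 and 120 in MC38-FUT9 and at 267, 245 and 603 in MC38-MOCK#2. Sample 3 of MC38-MOCK#2 was the highest of all 24 samples, and samples 1 and 2 were also far above all samples of MC38-FUT9. The log2 fold change was -1.70 (SE 0.34, adjusted p = 0.0124). Without sample 3 of MC38-MOCK#2 it was -1.29 (adjusted p = 0.00882), whereas leaving out any sample of MC38-FUT9 ended the call (adjusted p up to 0.0796). Socs3 stood at 188, 143 and 173 in the line labelled MC38-FUT4, also below every sample of MC38-MOCK#2, but the log2 fold change of -1.02 did not pass (SE 0.33, adjusted p = 0.0857). Without sample 3 of MC38-MOCK#2 this value was -0.61. The log2 fold change between MC38-MOCK#2 and MC38-MOCK#1 (134 to 223) was 0.97 and did not pass (SE 0.36, adjusted p = 0.147). Without sample 3 of MC38-MOCK#2 it was 0.56 (adjusted p = 0.219). In the knockout lines Socs3 stayed between 128 and 244 and overlapped with MC38-MOCK#1.

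Socs1, the inhibitor of JAKs induced by interferon, stood at 106, 114 and 201 in MC38-FUT9 and at 119, 101 and 133 in MC38-MOCK#2, a difference of 0.20 on the log2 scale (95% interval -0.40 to 0.80, adjusted p = 0.637). It was lowest in MC38-COSMC KO, at 80, 66 and 81, below all samples of MC38-MOCK#1 (92, 91 and 113) and MC38-WT (122, 221 and 95). The fold changes were -0.38 against MC38-MOCK#1 (SE 0.15, adjusted p = 0.175) and -0.85 against MC38-WT (SE 0.29, adjusted p = 0.236), and both missed the threshold. MC38-WT and MC38-FUT9 each held 1 sample far above the other two, which widened their intervals.

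Most genes downstream of these receptors were lower in MC38-FUT9, while 0 of the 4 receptor chains were called with all samples kept. Of 30 interferon targets 24 were lower and 0 higher, with a median log2 fold change of -3.74 against 0.03 over genes with a mean of at least 10. Ifi44 had the largest fall (-5.42, adjusted p = 0.00554), followed by the antiviral enzymes Oas1a (-5.16), Oasl2 (-5.03) and Rsad2 (-4.66). Rsad2 stood at 8, 2 and 6 in MC38-FUT9 and at 86, 62 and 559 in MC38-MOCK#2. Without sample 3 of MC38-MOCK#2 the count was 23, and without any 1 sample of MC38-FUT9 it was 11 to 14. The fold changes of listed genes in this and the next paragraph all include sample 3 of MC38-MOCK#2. Of 10 STATs and IRFs, 9 were tested, 5 were lower and 1 was higher. Stat2 fell by 1.64 and Irf1 by 1.18 on the log2 scale, and Stat5a and Stat3 fell less. Stat6, which serves interleukin-4, was the gene that rose (0.77, adjusted p = 0.000973).

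Beside the members, other parts of cytokine signalling also differed in MC38-FUT9. Usp18, which blocks IFNAR2 signalling, stood at 2, 2 and 1 against 43, 23 and 340 in MC38-MOCK#2 and was called lower (adjusted p = 0.0114). Jak3, the kinase of the common gamma chain, stood at 14, 11 and 11 against 105, 74 and 141 (-3.01, adjusted p = 0.000715), so that 2 of the 4 JAKs, Tyk2 and Jak3, were lower. Of the 12 tested genes of the list of other receptors and Jak3, 6 were lower and 1 was higher. Il13ra1 fell by 1.62, Il11ra1 by 1.65 and Osmr by 1.08 on the log2 scale, all chains of receptors for other cytokines. Among the 11 tested of 12 other inhibitors, 4 were lower (Usp18, Ptpn6, Pias3, Ptpn1) and 3 higher (Sh2b3, Ptpn11, Pias2). Lif, a cytokine that signals through STAT3, fell by 1.81 (97, 104 and 110 against 273, 302 and 591). Of 10 listed STAT3 targets, 2 were lower, Fos (-2.82) and Junb (-1.26), and 3 were higher, Myc (1.08), Ccnd1 (1.07) and Il4ra (0.63). Of all genes 24.1% were called in MC38-FUT9. The same STAT3 targets were called in the same directions in the line labelled MC38-FUT4, where Bcl3 and Bcl2l1 were lower too. Between MC38-MOCK#2 and MC38-MOCK#1 the log2 fold changes of Fos and Junb were 1.80 and 1.29, and neither was called.

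**Figure D3:**
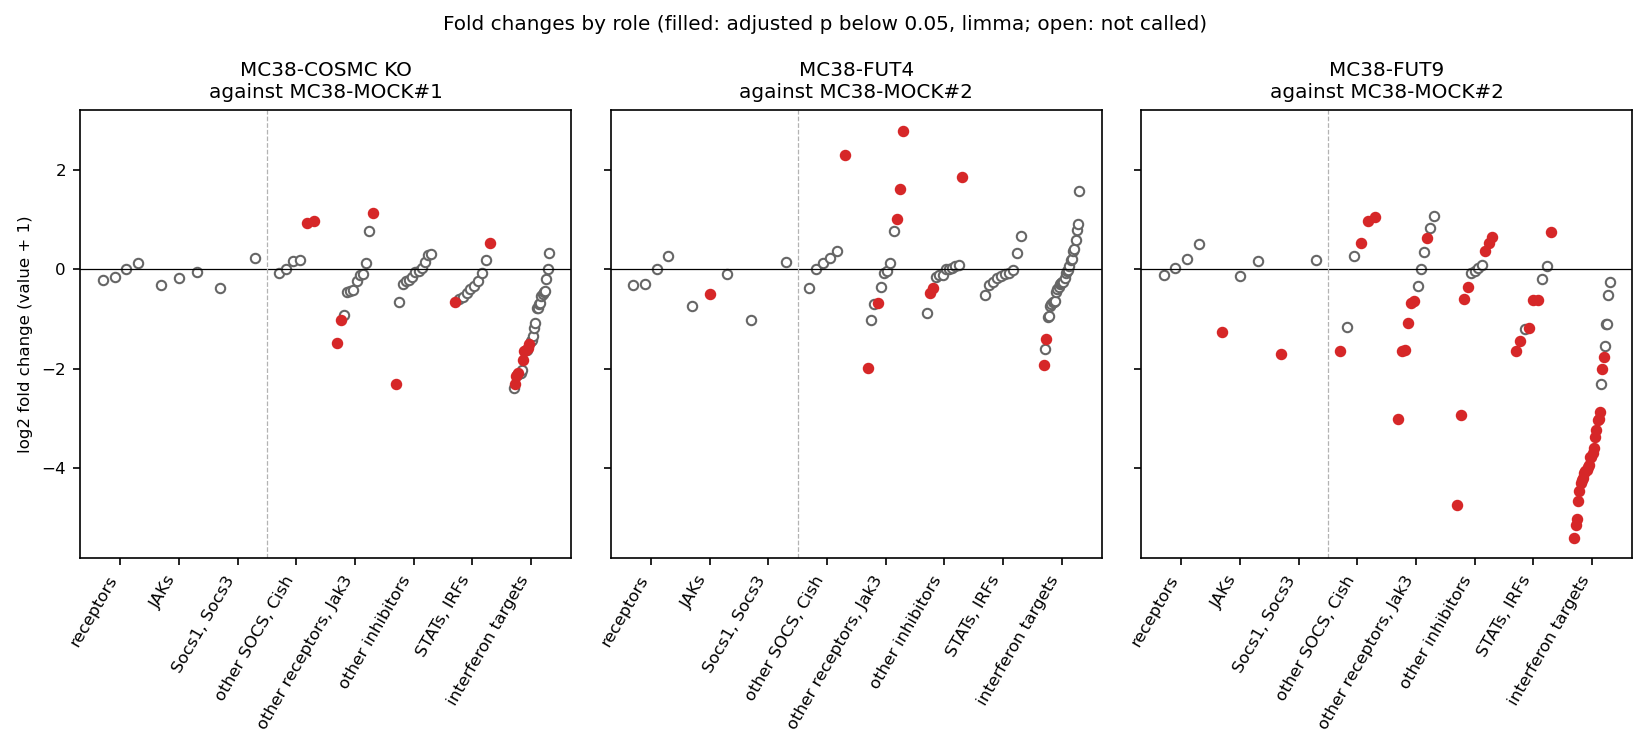
Log2 fold changes on the scale of log2(normalized count + 1), with 1 point per gene, sorted within each role along the horizontal axis, for 3 comparisons. Filled points passed limma at an adjusted p below 0.05, and the members stand left of the dashed line. In MC38-FUT9 the 30 interferon targets reached down to -5.42 while the receptors lay between -0.12 and 0.52.

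In MC38-COSMC KO 8 of 30 interferon targets were lower than in MC38-MOCK#1 and 0 higher, with a median log2 fold change of -1.43 against 0.00 over genes with a mean of at least 10. Cmpk2 (-2.31), Oas1a (-2.15), Trim30a (-2.10) and Ifi27 (-1.82) fell most among the called targets. This count of 8 fell to between 0 and 3 when any 1 of the 6 samples was left out. It was 1 without sample 3 of MC38-MOCK#1, which had the highest interferon target score of its line. The median and the fold changes include that sample. Irf1, a transcription factor of the interferon gamma response, stood at 515, 444 and 477 against 747, 761 and 761 (log2 fold change -0.66, adjusted p = 0.00234), Usp18 fell (adjusted p = 0.0194), and Stat6 rose by 0.54. Against MC38-WT, 0 of 30 targets were called in MC38-COSMC KO, where 0.581% of all genes were called. Irf1 (-0.40, adjusted p = 0.256) and Stat6 (0.24, adjusted p = 0.258) were not called there either. In MC38-CMAS KO against MC38-MOCK#1, Irf1 also fell (-0.64, adjusted p = 0.0106) and Stat6 rose (0.38). Of the 30 targets 1, Oas1a, was lower there (median of the list -0.70, 27 of 30 below 0), a call that was lost in all 6 fits without 1 sample. In MC38-DKO 0 of 30 targets and 0 of 10 STATs and IRFs were called against MC38-MOCK#1 by limma, where 0.092% of all genes were called. At an unadjusted p below 0.05 there were 3 of each, and the median log2 fold change of the targets was -0.55, with 27 of 30 below 0. Against MC38-CMAS KO, limma called Irf1 higher in MC38-DKO (0.56, adjusted p = 0.0300) and Stat6 lower (-0.47, adjusted p = 0.00622). Of the 30 targets 1 was called higher in that comparison, or 0 to 1 when any sample was left out, where 6.93% of all genes were called. For the line labelled MC38-FUT4, 2 of 30 targets (Gbp2, Ifit2) were lower, 1 when any sample was left out, and 0 of 10 STATs and IRFs were called by limma (2 at an unadjusted p below 0.05). The median of the targets was -0.26 there. With all samples kept, Ifnar1, Ifnar2, Ifngr1 and Ifngr2 were not called in any of the lines in which targets fell. Without sample 3 of MC38-MOCK#2, Ifnar1 and Ifngr2 were called higher in MC38-FUT9. Of the chains that work with Il10rb, Ifnlr1 and Il10ra were listed at 0 in all samples. Interferon genes themselves were nearly absent: Ifng and Ifnk were listed at 0 in all 24 samples, Ifnb1 never exceeded 1 and Ifne never exceeded 3.

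Whereas Socs1 and Socs3 were not called in any knockout line, 2 other SOCS genes were. Socs5 stood at 191, 193 and 207 in MC38-MOCK#1 and at 350, 383 and 404 in MC38-COSMC KO (log2 fold change 0.94, adjusted p = 0.00147). It was at 447 to 605 in MC38-CMAS KO (1.39, adjusted p = 0.00267), 341 to 452 in MC38-WT (1.06, adjusted p = 0.00815) and 469 to 704 in MC38-MOCK#2 (1.47, adjusted p = 0.00331). MC38-MOCK#1 was thus the lowest line for Socs5, and MC38-DKO at 228 to 318 stood next to it. Socs4 rose in the same 4 comparisons, by 0.97, 0.77, 0.83 and 0.48 on the log2 scale. Both were lower in MC38-DKO than in MC38-CMAS KO (adjusted p = 0.0107 for Socs5 and 0.0152 for Socs4). In MC38-FUT9, Socs5 reached 1043, 1136 and 1258 (1.06 over MC38-MOCK#2) and Socs4 1274, 1270 and 1178 (0.98), Socs7 was higher and Socs2 lower. Cish, a STAT5 target of the same family, rose from 4, 9 and 3 in MC38-MOCK#2 to 34, 22 and 29 in the line labelled MC38-FUT4 (2.31, adjusted p = 0.0123).

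Samples of 1 line differed in their interferon target score, the mean log2(normalized count + 1) of the 30 targets. In MC38-MOCK#2 the scores of samples 1 to 3 were 6.44, 6.22 and 8.53, in MC38-WT 5.65, 8.43 and 7.25, and in MC38-FUT9 3.88, 3.34 and 4.11. They were 6.28, 6.36 and 7.73 in MC38-MOCK#1, and 7.49, 5.47 and 7.46 in the line labelled MC38-FUT4. Within lines, after the mean of each line was taken away, Socs3 followed this score most closely of the 9 (Pearson's r = 0.90, permutation p = 3e-05, adjusted p = 0.000928; Spearman's rho = 0.89, permutation p = 4e-05, adjusted p = 0.00120; 24 samples). The p-values come from 100000 shuffles within lines and were adjusted over all 13486 genes tested. The highest Socs3 sample was also the sample with the highest score in 7 of 8 lines. Per unit of score, Socs3 rose by 0.40 on the log2 scale.

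Ifnar1 (r = 0.84, permutation p = 0.00144, adjusted p = 0.00973; rho = 0.81), Ifngr1 (r = 0.75, permutation p = 1e-05, the smallest that these shuffles can give, adjusted p = 0.000753; rho = 0.75), Tyk2 (r = 0.72, permutation p = 0.00734, adjusted p = 0.0309; rho = 0.65) and Ifngr2 (r = 0.68, permutation p = 0.00906, adjusted p = 0.0359; rho = 0.62) were also correlated with the score. For rho the permutation p-values were 0.00144 (adjusted p = 0.0102), 9e-05 (adjusted p = 0.00172), 0.0101 (adjusted p = 0.0401) and 0.0146 (adjusted p = 0.0528) in this order, so Ifngr2 missed the threshold by rank. Slopes were small, 0.12 for Ifnar1, 0.13 for Ifngr1, 0.17 for Tyk2 and 0.18 for Ifngr2. Without the 2 samples farthest from the median score, r was 0.86 for Socs3, 0.77 for Ifnar1, 0.79 for Ifngr1, 0.64 for Tyk2 and 0.56 for Ifngr2. Ifnar2 (r = 0.45, rho = 0.39), Jak2 (r = 0.44, rho = 0.41), Socs1 (r = 0.30, rho = 0.24) and Jak1 (r = 0.24, rho = 0.28) did not pass, with adjusted permutation p-values from 0.143 to 0.513. A positive relation was called for 5 of 9 members and for 14.7% of all genes (28.1% in either direction). The r of Socs3 was exceeded in size by 1.58% of all genes, that of Ifngr2 by 19.3%. Within lines the score had r = -0.06 with the estimated reads and 0.55 with the summed leukocyte markers, which never exceeded 66. It had r = 0.64 with the summed epithelial markers, which never exceeded 11, and -0.58 with the summed mesenchymal markers. Vim made up most of the mesenchymal sum, so the last value describes Vim and need not hold for the other markers of that list. The part of reads and markers in these relations was not tested.

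**Figure D4:**
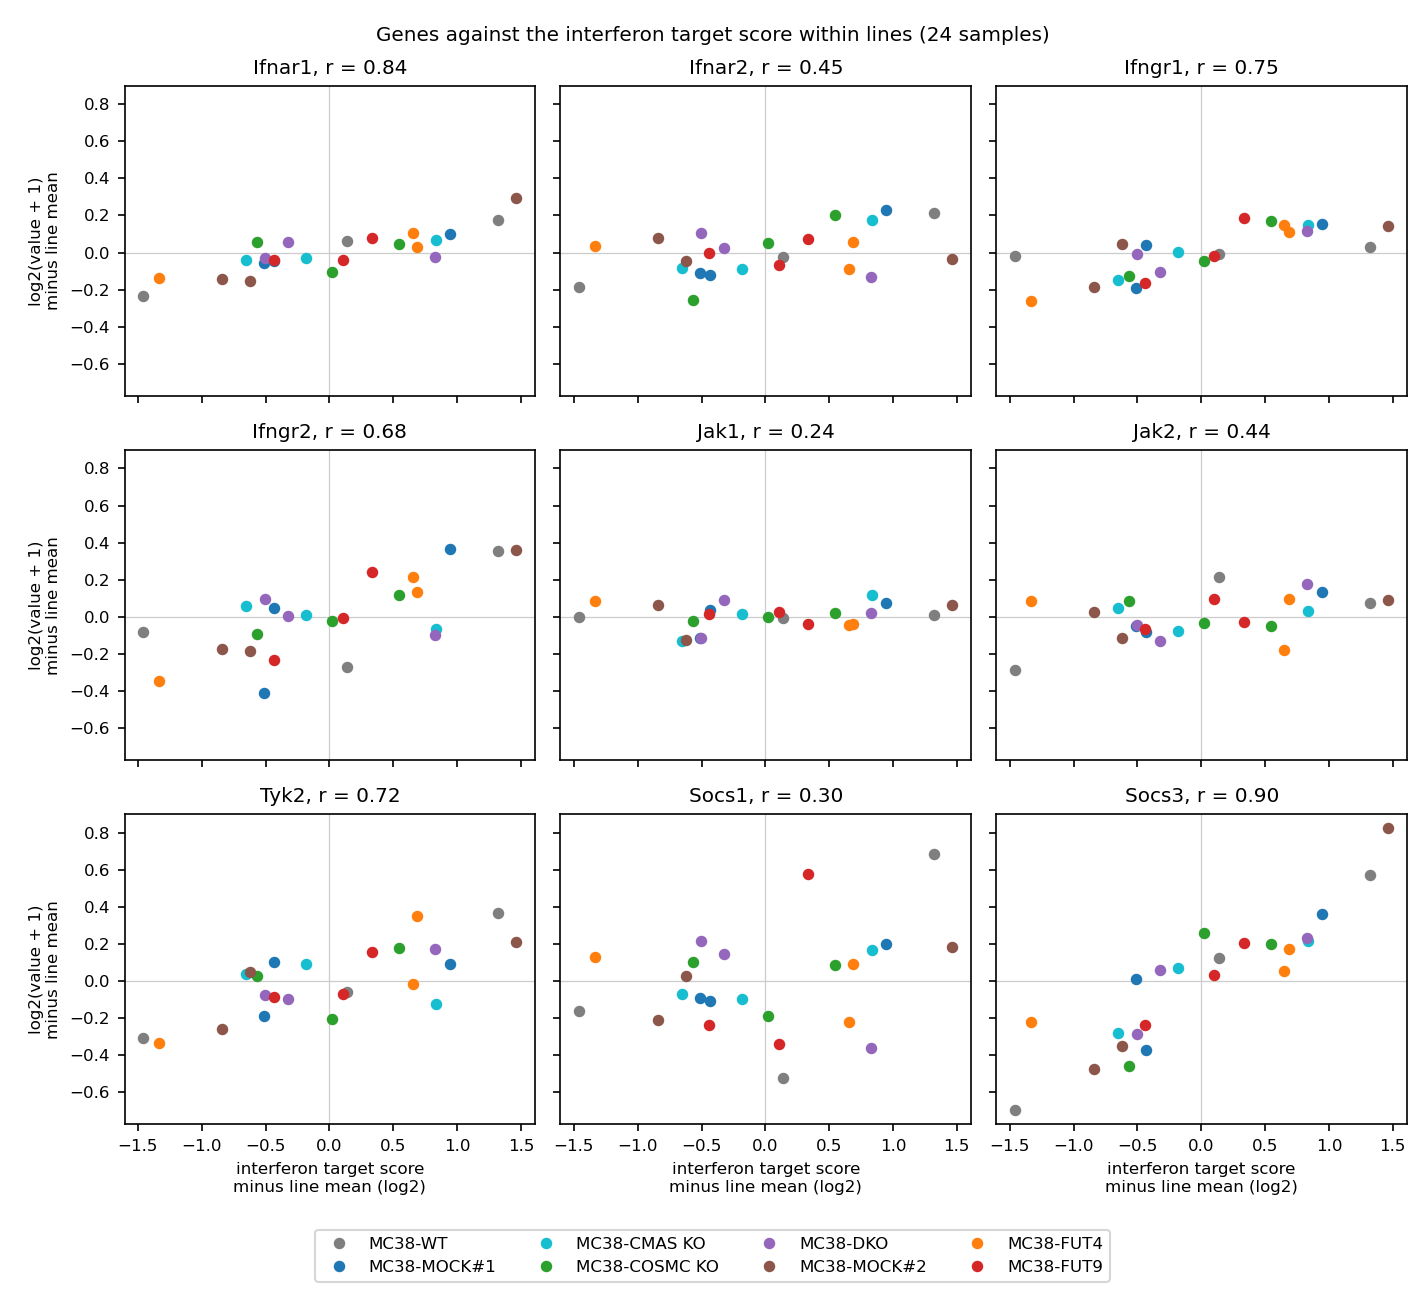
Each panel plots log2(normalized count + 1) of a gene (vertical axis) against the interferon target score (horizontal axis), both minus the mean of the line, for 24 samples coloured by line. Socs3 rose along the score (r = 0.90), Ifnar1 and Ifngr1 rose less steeply, and Jak1 stayed flat (r = 0.24).

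Across all 24 samples, with line differences kept, Tyk2 was most like Wdtc1 (r = 0.92), Lgals9 (0.91) and Irf1 (0.91) among 13514 other genes with a mean of at least 10. Socs3 was most like Rab3d (0.88), Vwa5a (0.87) and Gabarap (0.87), and Socs1 most like Tpi-rs11 (0.80), Gm5617 (0.76) and Tbcc (0.75). For Jak2 these genes were Synj1 (0.86), the identifier ENSMUSG00000091562 (0.85) and Mdga1 (0.85), and for Jak1 Tbx18 (0.85), Gng12 (0.83) and Enah (0.79). The receptor chains were most like Pdgfra (0.87), Slc44a1 (0.86) and Aida (0.85) for Ifnar1, Btd (0.75), Dbn1 (0.74) and Dnttip1 (0.73) for Ifnar2, Gpx4 (0.82), Hmg20b (0.79) and Aifm2 (0.78) for Ifngr1, and Orai3 (0.88), B4gat1 (0.86) and N4bp2os (0.84) for Ifngr2. Among the 36 pairs of members, Ifnar1 and Ifngr2, which are neighbours on chromosome 16, were most alike (r = 0.81), followed by Tyk2 and Socs3 (0.69). The pair of interferon gamma chains and the pair of type I chains were not among the 4 most alike. These values are descriptions over samples that share lines and libraries.

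Genes within 500 kb of the receptor cluster, Jak2 and Tyk2 were examined because neighbours can change together. The surroundings of Ifngr1, Jak1, Socs1 and Socs3 were not examined. Around the receptor cluster on chromosome 16, 16 other genes had a mean of at least 10. In MC38-FUT9 6 of these neighbours were higher and 1 was lower, where 24.1% of all genes tested were called. The shares over all genes here include genes with a mean below 10. The gene that fell was Il10rb, which lies between Ifnar2 and Ifnar1 and stood at 95, 91 and 83 against 135, 130 and 156 in MC38-MOCK#2 (log2 fold change -0.64, adjusted p = 0.0111). The neighbours that rose included Eva1c (1.64) and Slc5a3 (0.85). Of the 16 neighbours, 5 were lower and 0 higher in the line labelled MC38-FUT4, where 16.1% of all genes were called and 8.04% were called lower. The median log2 fold change over 394 genes of chromosome 16 was -0.24 there, against -0.01 over all genes. Ifnar1 (-0.29) and Ifngr2 (-0.31) lay near this median, whereas Ifnar2 (0.01) and Socs1 (0.16) did not. Near Jak2, 1 of 13 neighbours was higher and 1 lower in that line, the latter Ak3 (-0.44). In MC38-FUT9, Cd274, the gene of PD-L1 and a known interferon gamma target, fell by 1.39 (adjusted p = 0.0106) beside an uncalled Jak2. The surroundings of Tyk2 were added after the values were seen. Of its 28 neighbours 12 were lower and 2 higher in the line labelled MC38-FUT4, with a median of -0.36 against 0.11 over 734 genes of chromosome 9, beside the -0.73 of Tyk2. In MC38-FUT9, where Tyk2 fell by 1.26, 3 neighbours were lower and 4 higher, with a median of 0.02.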

How the data were processed

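RNA of 24 MC38 samples (TruSeq Stranded mRNA, HiSeq4000, single reads of 50 bases) was trimmed with Sickle, aligned to GRCm38 with HISAT2 2.0.4 and counted per gene with featureCounts (Subread 1.5.0-p3) by the authors. What the authors deposited is a score, that is, counts scaled for library size and TMM with edgeR 3.18.1 and rounded to whole numbers, so no count model was used here. The strand setting of the counting is not given in the sources used here. Reads per sample were estimated from the gaps that scaling leaves among whole numbers, assuming no factor below 0.7.

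Genes with more than 4 zeros among 6 samples (16 among 24) were left out. log2(value + 1) was fitted with limma 3.58.1 in R 4.3.3 (eBayes with trend, 3 against 3 samples, no covariate), and a Benjamini-Hochberg adjusted p below 0.05 was a call. Fold changes understate low genes. On simulated data for MC38-COSMC KO against MC38-MOCK#1, 171 of 200 genes changed 2-fold among 22550 were called, with 0 false calls. Whether these values hold for the real samples, which differed in interferon target score within both lines, was not tested. Correlations were permuted within lines (Python 3.11.15, numpy 2.4.6). Their p was planned to be adjusted over the 9 members, and all genes were used instead. Members, gene lists and tests were chosen with earlier results of these data known. Named beside the members were at most 4 called genes of a list per comparison, with the largest fold changes, and the 3 genes most like each member. Ptpn1, Ptpn11, Pias2, Il4ra among the STAT3 targets, Stat3 and Stat5a fall outside this rule and were chosen after their values were seen. The same holds for STAT3 targets named in comparisons other than MC38-FUT9 against MC38-MOCK#2. Samples of a line are harvests of 1 culture, most from different passages, so p-values measure the spread between such harvests. Coordinates are those of the deposited table, exon overlaps are from a GENCODE annotation and sequences from RefSeq, all of GRCm38.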

Additional observations from a re-analysis of the deposited data

Results flagged for a closer look

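Tyk2 differed between 2 comparisons of the same knockout. Targeting COSMC in cells with intact Cmas gave a log2 fold change of -0.31 (MC38-COSMC KO against MC38-MOCK#1), and targeting it in cells with targeted Cmas gave 0.49 (MC38-DKO against MC38-CMAS KO). The difference between them, tested as an interaction with limma over the 12 samples of these 4 lines, was -0.80 (SE 0.20, adjusted p = 0.0113). It was the member with the smallest p of the 9, and 22.1% of all genes were called in the same test. Leaving out any of the 12 samples gave -0.89 to -0.69 and an adjusted p of at most 0.0335. Neither of the 2 comparisons called Tyk2 by itself, and the lines are separate populations, so an effect of COSMC and a difference between lines cannot be told apart.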

How the results depend on the processing

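The counts of called members stayed within 1.5 times the reported count under 145 alternatives and moved under 16, over the 9 comparisons, the test over all lines and the correlations. Many of the steady counts come from comparisons in which 0 members were called and the count stayed at 0. Leaving out 1 sample moved the count in 5 of 6 fits in the line labelled MC38-FUT4 and in 4 of 6 in MC38-FUT9. In the line labelled MC38-FUT4 the count of 1 became 2 with genes of a mean of at least 10, 0 without a trend, 3 with all 8 lines in 1 fit, 0 with samples 1 and 3 averaged (an alternative chosen after seeing the data), and 0 to 1 when a sample was left out. In MC38-FUT9 the count of 2 became 1 to 4 when a sample was left out. It was 4 without sample 3 of MC38-MOCK#2, with Ifnar1 and Ifngr2 higher. MC38-MOCK#2 against MC38-MOCK#1 gave 1 with all 8 lines in 1 fit (Socs3, adjusted p = 0.0320), and the test over all lines gave 8 with genes of a mean of at least 10. The correlations gave 4 to 6 members when a line was left out. The causes were not tested.

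In none of the 9 comparisons did all same-numbered pairs correlate above 0.1 in their deviations over genes (mean r -0.10 to 0.17), so numbers were not treated as pairs. In 3 comparisons (MC38-DKO against MC38-CMAS KO, and MC38-MOCK#2 against both MC38-MOCK#1 and MC38-FUT9) all pairs correlated above 0 and every sample correlated best with its own number, a hint from the data and not the design. With the replicate number as a block, 0 members were called in the line labelled MC38-FUT4 and 3 in MC38-FUT9, with Ifngr2 higher (adjusted p = 0.0359), and 6 over all lines. Over all genes the block moved the calls from 2563 to 4 in MC38-COSMC KO, from 1268 to 1 in MC38-CMAS KO, from 20 to 0 in MC38-DKO and from 1192 to 0 in MC38-WT against MC38-MOCK#1, from 127 to 0 in MC38-COSMC KO against MC38-WT, from 1515 to 795 in MC38-DKO against MC38-CMAS KO, and from 3509 to 1756 in the line labelled MC38-FUT4. Of the interferon targets, 8 in MC38-COSMC KO became 0 and 24 in MC38-FUT9 became 20. Without a trend the calls over all genes became 1135 in MC38-COSMC KO, 726 in MC38-CMAS KO, 40 in MC38-DKO, 717 in MC38-WT and 1389 (from 2454) in MC38-MOCK#2 against MC38-MOCK#1, 692 in MC38-DKO against MC38-CMAS KO, 2270 in the line labelled MC38-FUT4 and 3430 (from 5166) in MC38-FUT9. With all 8 lines in 1 fit they became 2207 in MC38-CMAS KO, 159 in MC38-DKO, 2981 in MC38-WT, 3976 in MC38-MOCK#2, 945 in MC38-COSMC KO against MC38-WT and 2403 in MC38-DKO against MC38-CMAS KO. With samples 1 and 3 averaged they became 1739 in the line labelled MC38-FUT4. Without a trend the interferon targets fell to 1 in MC38-COSMC KO. A mean of at least 10 gave 16 such targets. With 3 samples a line, the median 95% interval of a member reached 0.32 to either side on the log2 scale.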
